A study of Drosophila melanogaster with 12 samples.

Results

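The mitochondrial ribosomal proteins were followed as a group of transcripts in whole female fruit flies. All rows of the table of normalised counts whose symbol starts with mRpL or mRpS were taken, which gave 73 genes of 17714, 47 named for the large and 26 for the small ribosomal subunit. Of these, 72 passed the filter on low values, which asked for 10 or more normalised counts in 3 or more of 12 libraries. The remaining gene, mRpL53, was listed at 0 in every library, and all of its annotated exon bases are shared on the same strand with CG33155 or AGO1, so its level could not be read. The filter chose nothing by group, since the 72 genes stood at 126 normalised counts or more in every library.

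Poly(A) RNA was sequenced from whole bodies of females of 2 genotypes at 2 ages. The wild type was labelled wOB and the mutant ptth120BC2, a line of the gene Ptth for the brain hormone that triggers ecdysteroid synthesis in the larval prothoracic gland, and the labels do not say what the lesion is. Young flies were 1 week old and old flies 5 weeks old. Each of the 4 groups (each genotype at each age) had 3 libraries, each from about 15 pooled flies. Because whole bodies were used, fewer cells of a type and less RNA per cell cannot be told apart.

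Mitochondria make a few core subunits of the respiratory chain on ribosomes of their own. The RNA of these ribosomes comes from the mitochondrial genome, whereas their proteins are encoded in the nucleus, made in the cytosol and imported. Members numbered up to L36 and S21 take their numbers from bacterial ribosomal proteins (42 genes), and the higher numbers were given to proteins found in mitochondrial ribosomes, most without a bacterial counterpart (31 genes). In mammals, loss of these proteins weakens respiration, and the fly gene tko, which encodes the S12 protein under another name, is known for a bang-sensitive mutant with slow development.

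Depth lay between 16448805 and 28206866 reads per library. The 73 genes took 0.222% of reads in wild type young replicate 2 (95% Wilson interval 0.220 to 0.223) up to 0.267% in Ptth mutant young replicate 3 (0.265 to 0.269), and these intervals cover counting error only. Although all libraries were labelled female, 3 of the young ones held transcripts of the male reproductive tract. Summed over the 21 markers found in the table, the level was 4492 for wild type young replicate 1, 13571 for its replicate 2, 5926 for Ptth mutant young replicate 1, and at most 34.7 in the other 9. One marker of the list, Acp95EF, was listed at 0 in every library. Main results on young flies are therefore repeated with these 3 left out, and the single remaining library of young wild type is then assumed to vary like the other groups.

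The mean normalised count over 12 libraries ran from 160 for mRpS24 to 2105 for mRpS30, with a median over the 72 genes of 693. After mRpS30 the highest means were those of mRpL28 (1793), mRpL12 (1789), mRpL45 (1492) and mRpS7 (1391), and the lowest after mRpS24 were those of mRpL34 (199), mRpS21 (227), mRpL33 (295) and mRpS18C (300.1). In mammals the S30 protein was located in the large subunit in spite of its name, and L45 lies near the exit tunnel on the side that faces the inner membrane. S7 belongs to the head of the small subunit, and L28, L33 and L34 have bacterial counterparts in the large subunit.

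Levels were compared between genes per kb of annotated exon. On this scale mRpL12 (chromosome 3L, 8956791 to 8957584 of BDGP6, plus strand) stood first with 2423 normalised counts per kb, followed by mRpL28 with 1533 and mRpS7 with 1516, against a median of 816. mRpL12 encodes the stalk protein that contacts translation factors, and its bacterial counterpart is present in several copies per ribosome. Its normalised count was 1636, 1491 and 1820 in young and 1844, 1779 and 1683 in old wild type, and 1801, 1892 and 1921 in young and 1822, 1895 and 1879 in old mutants. The 3 young wild type libraries spanned a wider range than any other group and overlapped the young mutants at their upper end. The plot of levels per kb shows a shallow slope from the second gene on.

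**Figure D1:**
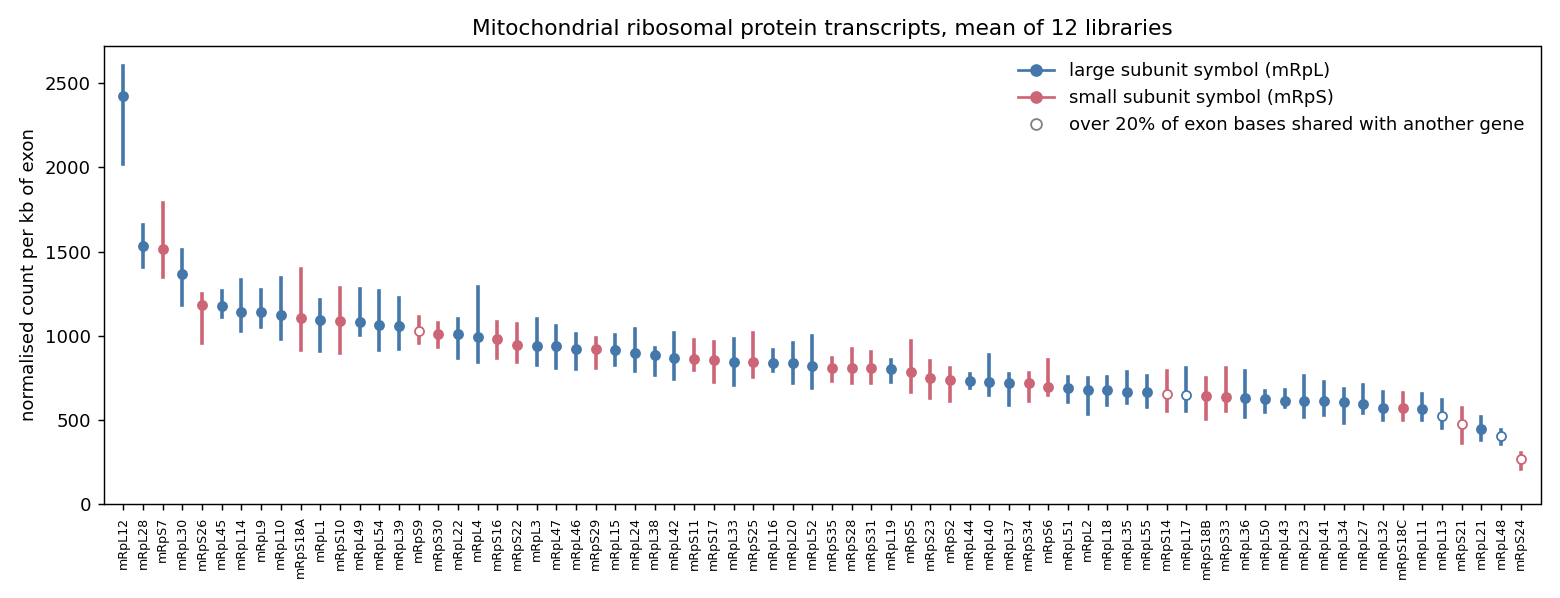
Normalised count per kb of exon (vertical axis) for each of 72 genes, ordered by mean. Points are means of 12 libraries, lines span the lowest to the highest library, blue and red mark symbols of the large and small subunit, and open points mark genes with over 20% of exon bases shared with another gene. mRpL12 stands at 2423 and mRpS24 at 267.

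Genes with large and small subunit symbols were expressed at like levels per kb, with medians of 829 (46 genes) and 808 (26 genes). Genes of bacterial numbering had a median of 837 per kb and those of higher numbers 808. The lowest gene, mRpS24 (chromosome 3R, 24162829 to 24163545, minus strand), stood at 267 per kb, and 55.3% of its exon bases are shared with TBC1d7 on the other strand. The methods do not state a strand setting for the counting, so reads in such stretches may have been left uncounted or given to either gene. With the whole count divided by only the exon bases that no other gene shares, mRpS24 came to 599 per kb. On that scale mRpS21, with 48.0% shared, came to 918 in place of 478. These 2 higher values hold only if no read in the shared stretches was counted.

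The 72 genes varied little from library to library. The highest library stood over the lowest by 1.12-fold for mRpL44, the steadiest, and by 1.56-fold for mRpS21, the most variable, with a median of 1.31-fold against 1.64-fold over all 11403 genes tested. The SD among replicates, pooled over groups on the log2 scale, had a median of 0.10 for these genes and 0.17 for all genes tested. L44 resembles the double-strand RNA nucleases and has no known nuclease activity in the ribosome. Its normalised count lay between 772 and 867 in the 12 libraries, and every group overlapped every other.

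Single libraries stood apart over most of the group. Ptth mutant young replicate 3 was above its group mean in 70 of 72 genes and gave the highest of the 12 values in 50, whereas wild type young replicate 2, the library with the highest sum of male transcripts, gave the lowest value in 34. Taken by symbol alone, the sum of mRpL over the sum of mRpS transcripts stayed between 1.67 and 1.75 in all 12 libraries. Group means of this ratio were 1.72 ± 0.04 for wild type and 1.71 ± 0.02 for mutants among young flies, and 1.71 ± 0.03 and 1.70 ± 0.01 among old ones (SD, n = 3), and the groups overlapped.

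**Figure D2:**
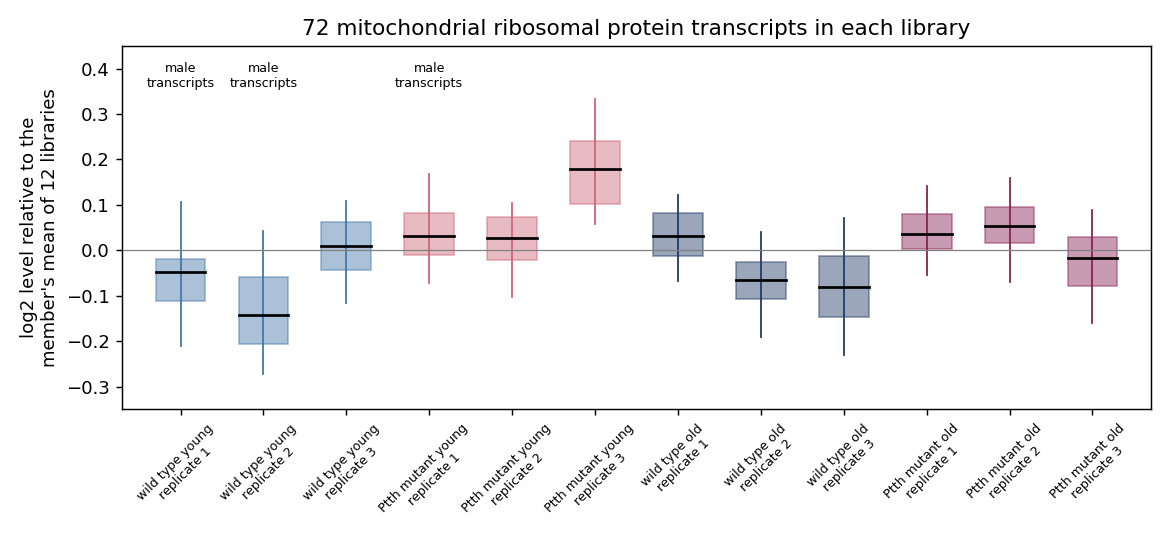
Log2 level of 72 genes relative to each gene's mean of 12 libraries (vertical axis), by library. Black bars are medians, boxes quartiles and lines the 5th to 95th percentile over genes. Ptth mutant young replicate 3 stands highest with a median of 0.18 and wild type young replicate 2 lowest with -0.14.

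The first comparison was between genotypes at the young age. Most of the genes stood a little higher in young Ptth mutants: 66 of 72 (91.7%) had a log2 change above 0, with a median of 0.15, against 47.3% and a median of -0.02 over all genes tested. The changes were small and ran from -0.07 to 0.34. In limma, 2 genes passed at an adjusted p under 0.05, both higher, where 3.3% of all genes tested passed as higher and 5.53% as lower. None of the 72 genes passed as lower, and 20 had an unadjusted p under 0.05. The share of all genes under that unadjusted p is not given here. Without overlap between the groups, 23 of 72 genes (31.9%) were higher and 0 lower, beside 11.6% and 13.7% of all genes tested.

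Both genes that passed belong to the families shared with bacteria. mRpL4 (chromosome 2L, 16328059 to 16329132, minus strand) encodes a protein whose bacterial counterpart lines the exit tunnel. Its normalised count was 896, 853 and 942 in wild type and 1075, 1006 and 1308 in mutants at the young age. All 3 mutant libraries lay above all 3 of wild type, and the mutant values were the more spread. The log2 change was 0.32 ± 0.09 (SE, limma, adjusted p = 0.0472).

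mRpS17 (chromosome 2R, 24173665 to 24174441, minus strand) encodes a protein that binds the RNA of the small subunit. It measured 519, 557 and 560 in wild type and 648, 631 and 687 in mutants at the young age. The groups did not overlap, and the log2 change was 0.26 ± 0.07 (limma, adjusted p = 0.0332). No gene with a higher number passed. The median log2 change was 0.17 over the 42 genes of bacterial numbering and 0.11 over the 30 tested of higher numbers. The difference between these sets was not tested.

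These calls were narrow ones. Without the 3 libraries with male transcripts, which left 1 young wild type library, the median fell to 0.07 and 64 of 72 genes were above 0. That fit kept Ptth mutant young replicate 3, the highest library. Its median and share over all genes are not given here, so no direction is read from the 64. In the same fit mRpL4 had a log2 change of 0.28 and mRpS17 of 0.23. Under edgeR 1 gene passed and under DESeq2 15, all higher. Of the 11403 genes tested, edgeR passed 171 as higher and 697 as lower, and DESeq2 1201 and 1282. Leaving out 1 library at a time gave 25 genes without wild type young replicate 3, when every young wild type library left held male transcripts. It gave 3 without wild type old replicate 3. It gave 1 gene without Ptth mutant young replicate 2 or wild type old replicate 1 or 2. It gave 0 without wild type young replicate 1 or 2, Ptth mutant young replicate 1 or 3, or any of the old mutant libraries. The median was 0.09 without Ptth mutant young replicate 3. The share over all genes is not given for these fits, so the counts are not read further. Of the calls over all genes, 37.3% were higher as reported here, 37.5% with quantile normalisation and 22.1% with TMM scaling. With the count tests, which change the input and the model as well, the share was 19.7% in edgeR and 48.4% in DESeq2, and lower calls outnumbered higher ones in each of these settings.

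Markers of other tissues also differed between these groups. Of the 18 germline and oocyte markers tested, 15 stood higher in young mutants and 2 passed, with a median log2 change of 0.24. Their sum was 104726 to 128677 in wild type and 126691 to 143668 in mutants at that age, and cup was listed at 0 throughout. Per 1000 counts of these markers, the mitochondrial ribosomal proteins summed to 454 ± 24.0 in wild type and 422 ± 29.8 in mutants at that age (SD, n = 3), and the groups overlapped. Muscle markers lay the other way, with 3 of 20 higher in young mutants, 1 passing as lower and a median of -0.25, and sums of 192071 ± 31002 in wild type and 149686 ± 8099 in mutants (SD, n = 3) that overlapped. Sums of the fat body and gut markers overlapped as well. The part of these markers and of the male transcripts in the change was not tested.

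At the old age no gene passed. Of 72 genes, 58 (80.6%) stood higher in old mutants, with a median of 0.08 against 0.00 over all genes tested, of which 2.03% passed as higher and 3.67% as lower. In limma 4 genes had an unadjusted p under 0.05, edgeR passed none and DESeq2 2. Over all genes tested DESeq2 passed 417 as higher and 716 as lower. The groups did not overlap for 14 genes that were higher (19.4%, against 11.5% of all genes) and for 1 that was lower, mRpL43 (14.9% of all genes). The genotype comparisons had libraries of their own, and 55 genes stood higher in mutants at both ages. Since most genes stood higher at each age, a large overlap was bound to arise, and the share over all genes was not counted. The genes also moved together within libraries (70 of 72 above the group mean in Ptth mutant young replicate 3), so they are not separate observations. Of the 18 germline markers 15 were again higher in mutants and 1 passed, with a median of 0.09. Fat body and gut markers differed more. The sum of 6 fat body markers was 363763 to 486551 in wild type and 506002 to 648252 in mutants, and that of 6 gut markers 62644 to 77845 and 83445 to 101663, both without overlap. Of the fat body markers 1 of 5 tested passed and of the gut markers 2 of 6, all higher. The part of these markers in the change was not tested.

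The smallest p at this age was that of mRpS5, which encodes a small subunit protein that in bacteria lies at the entry of the messenger channel (chromosome 3L, 24537236 to 24543534, plus strand). It measured 1209, 1170 and 1120 in wild type and 1361, 1364 and 1368 in mutants at the old age. The mutant libraries were nearly alike and all above wild type. The log2 change was 0.23 ± 0.07 (limma, adjusted p = 0.0915). At the young age the same gene measured 1229, 1318 and 1280 in wild type and 1363, 1444 and 1625 in mutants, also without overlap, with a log2 change of 0.21 ± 0.07 (adjusted p = 0.0769).

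mRpL24, whose bacterial counterpart lies by the exit tunnel, came next, with 784, 698 and 692 in wild type and 838, 872 and 807 in mutants at the old age. Its groups did not overlap, and the log2 change was 0.21 ± 0.07 (limma, adjusted p = 0.143). mRpS17, which had passed in young flies, measured 608, 557 and 580 in wild type and 661, 677 and 650 in mutants at the old age. It was again higher in every mutant library, with a log2 change of 0.19 ± 0.07 (adjusted p = 0.150). The limits of these estimates were close: in both genotype comparisons the 95% interval of each of the 72 changes lay within 1.5-fold in either direction, from -0.25 to 0.58 in young and -0.31 to 0.51 in old flies on the log2 scale, each interval taken on its own.

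**Figure D3:**
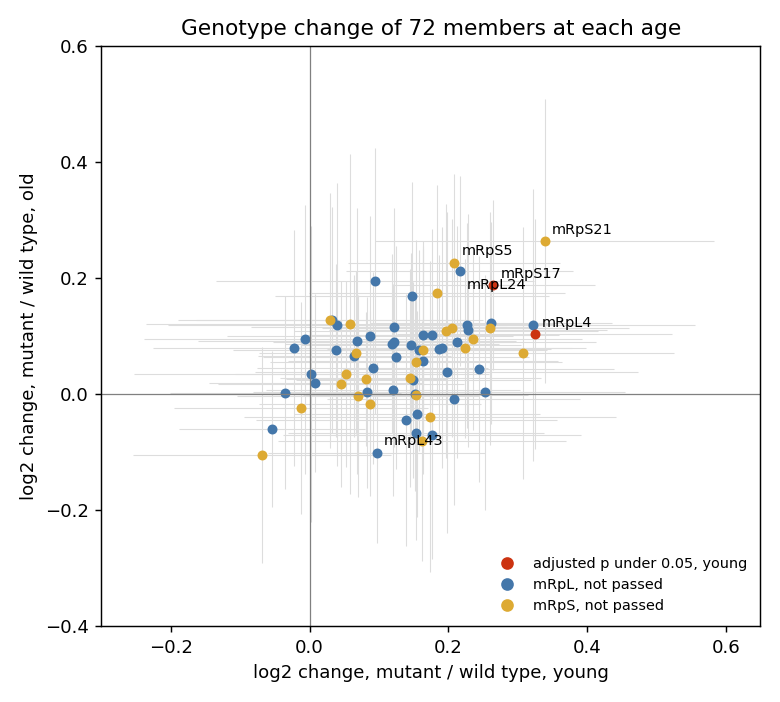
Log2 change between Ptth mutants and wild type in young (horizontal axis) and old flies (vertical axis) for 72 genes. Grey lines are 95% intervals, blue and yellow mark large and small subunit symbols, and red marks mRpL4 and mRpS17, which passed in young flies. 55 genes lie above 0 on both axes and 3 below 0 on both.

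Animals carry a set of 3 S18 proteins, and in mammals S18A sits in the large subunit. mRpS18A measured 547, 531 and 668 in wild type and 689, 660 and 810 in mutants at the young age, mRpS18B 526, 434 and 524 against 554, 559 and 565, and mRpS18C 295, 311 and 299 against 304, 305 and 315. The highest wild type library reached into the mutant range for mRpS18A and mRpS18C and not for mRpS18B. None passed (limma, adjusted p = 0.0699 for mRpS18A, 0.157 for mRpS18B and 0.835 for mRpS18C). Per kb of exon their means were 1103, 641 and 568. mRpS29, the counterpart of the mammalian GTP-binding protein DAP3, had a log2 change of 0.05 in young and 0.04 in old flies. For tko (S12) and bonsai (S15), which the symbol rule leaves out, the changes were 0.20 and 0.17 in young and 0.10 and 0.04 in old flies, and none passed.

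With age no transcript of a mitochondrial ribosomal protein passed in wild type, beside 2.7% of all genes tested that passed as higher and 5.73% as lower (32.0% of the passed genes were higher as reported and 44.96% with quantile normalisation). The median log2 change between old and young was 0.02, against 0.03 over all genes, and the 72 changes ran from -0.16 to 0.19. One gene had an unadjusted p under 0.05 in limma, and edgeR and DESeq2 passed none. The groups did not overlap for 5 genes that were higher and 3 that were lower (6.94% and 4.17%, against 10.7% and 11.6% of all genes). Of 72 genes 45 were above 0 with all libraries and 20 without those with male transcripts, when the median was -0.04, so no direction is given.

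mRpS34, a protein of the mitochondrial small subunit, had the smallest p. Its normalised count was 433, 468 and 487 in young and 552, 504 and 526 in old wild type. Every old library exceeded every young one, with a log2 change of 0.19 ± 0.07 (limma, adjusted p = 0.148). mRpS30 measured 1957, 1936 and 2079 in young and 2150, 2130 and 2145 in old wild type, a log2 change of 0.11 ± 0.05 (adjusted p = 0.224). mRpL37 had a log2 change of 0.14 ± 0.07 (adjusted p = 0.241). Without wild type young replicate 3, 3 genes passed, and the young wild type libraries left all held male transcripts.

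In Ptth mutants no gene passed with age either, where 2.47% of all genes tested passed as higher and 3.35% as lower. Of 72 genes 16 stood higher in old mutants (22.2%), with a median of -0.05 against -0.02 over all genes, and the changes ran from -0.24 to 0.13. In limma 3 genes had an unadjusted p under 0.05, and edgeR and DESeq2 passed none. The groups did not overlap for 2 genes that were higher and 9 that were lower (against 13.2% and 11.5% of all genes). Among the 72 genes the share that was lower was thus close to that of all genes, and the share that was higher was below it. Ptth mutant young replicate 3 was the highest library of the series for these transcripts, which bears on the median. The part of that library in the count of 9 genes that were lower was not tested.

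The smallest p was that of mRpL27, whose bacterial counterpart reaches toward the peptidyl transferase centre. It measured 659, 532 and 635 in young and 530, 503 and 512 in old mutants. The old libraries lay below the young ones, the nearest pair being close together, and the log2 change was -0.24 ± 0.08 (limma, adjusted p = 0.157). Without Ptth mutant young replicate 2 it fell by 0.33 (adjusted p = 0.0385) and was the only one of the 72 to pass. The exit tunnel protein gene mRpL23 had a log2 change of -0.23 ± 0.09 (adjusted p = 0.217) and mRpL17 of -0.20 ± 0.09 (adjusted p = 0.280). The 95% intervals of all 72 changes with age lay within 1.5-fold in both genotypes, from -0.42 to 0.40 in wild type and -0.47 to 0.32 in mutants on the log2 scale.

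Other nuclear genes of the mitochondrion were compared beside them. Those of respiratory complex I were lower with age. At an adjusted p under 0.05 in limma, 27 of the 36 tested passed as lower in wild type and 27 in mutants. Of all genes tested, 5.73% and 3.35% passed as lower. The median log2 change of complex I was -0.41 in both genotypes, and no gene passed as higher. Of the 37 tested genes of the other respiratory complexes 28 passed as lower in each genotype, with medians of -0.56 and -0.55. Cytosolic ribosomal proteins had medians of 0.11 and 0.06 and none of 87 passed in limma (2 with an unadjusted p under 0.05 in each genotype). Both age comparisons have libraries of their own, but the difference between lists was not tested. Without the libraries with male transcripts, 34 of the 36 complex I genes were still lower in old flies of each genotype, with medians of -0.27 in wild type and -0.38 in mutants, but 0 passed in wild type, where 1 young library was left (limma, 15 with an unadjusted p under 0.05), and 6 in mutants. Of the other complexes 31 genes were lower in each genotype, with medians of -0.37 and -0.52, and 3 passed as lower in wild type and 22 in mutants, where 1 passed as higher.

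**Figure D4:**
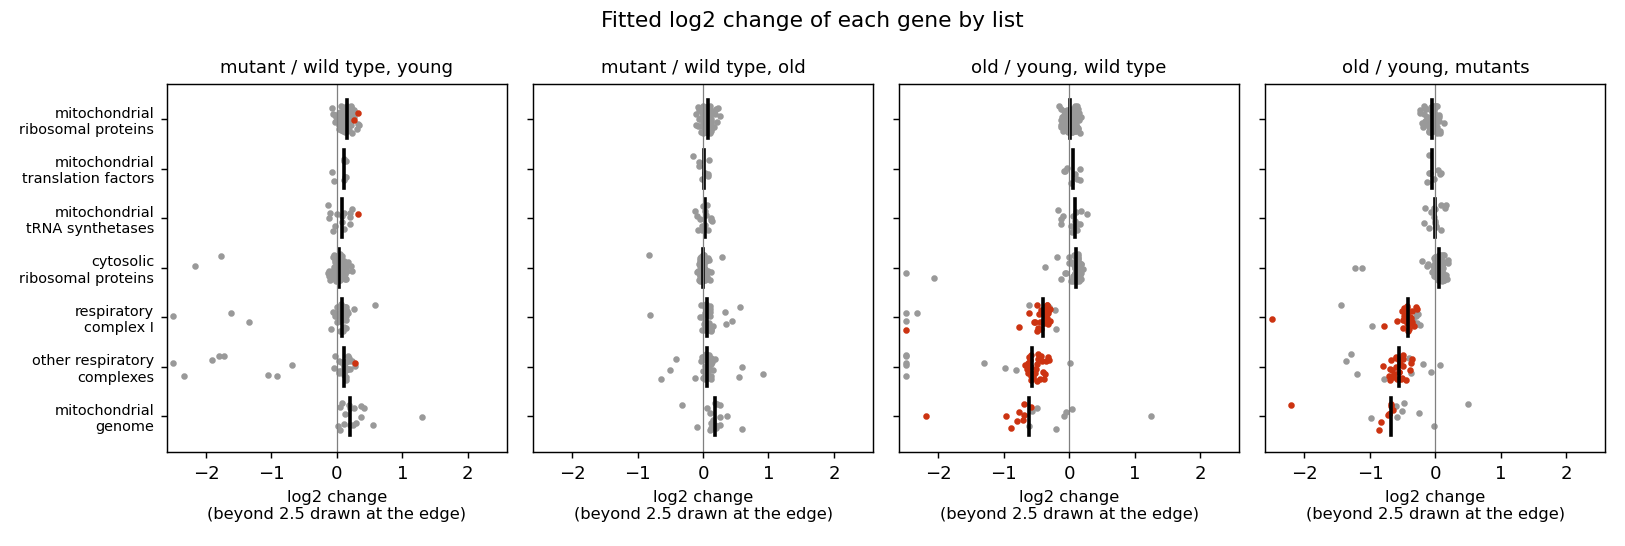
Log2 change of each gene (horizontal axis) by gene list for both genotype and both age comparisons. Red points passed at an adjusted p under 0.05 in limma, grey points did not, and black bars are medians. The mitochondrial ribosomal proteins stay at medians of 0.02 and -0.05 with age, where complex I stands at -0.41 in both genotypes.

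The members were also set against complex I within each library. The sum of mitochondrial ribosomal protein counts per 100 counts of complex I was 55.1, 50.4 and 64.0 in young wild type and 75.4, 82.5 and 73.0 in old wild type. In mutants it was 56.1, 62.1 and 61.2 in young and 73.6, 75.8 and 80.6 in old flies. All old libraries exceeded all young ones, those without male transcripts included. The group means were 56.5 ± 6.90 and 77.0 ± 4.94 in wild type and 59.8 ± 3.27 and 76.6 ± 3.58 in mutants (SD, n = 3). The sums of the ribosomal proteins alone were 52665 ± 2647 in young and 53629 ± 1960 in old wild type, and 57562 ± 3250 and 55521 ± 1367 in young and old mutants. Against cytosolic ribosomal proteins, the groups overlapped in wild type, with 23.6 ± 1.51 counts per 1000 in young and 22.4 ± 1.27 in old flies. In mutants this ratio was 25.1 ± 0.67 in young and 23.3 ± 1.42 in old flies. These groups overlapped only through Ptth mutant old replicate 3, at 24.9.

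Muscle, a tissue rich in mitochondria, fell with age as the respiratory genes did. Between genotypes in young flies the mean sums did not go the same way. They were 192071 in wild type and 149686 in mutants for muscle, 93786 and 96351 for complex I, and 243899 and 265173 for the other complexes. Each of these pairs of groups overlapped. Of 20 muscle markers 19 passed as lower with age in wild type and 16 in mutants, and 14 in mutants without the libraries with male transcripts. Their sum was 157111 to 216219 in young and 77449 to 100508 in old wild type, and 143889 to 158940 in young and 87952 to 98740 in old mutants, and none was at 0 throughout. The part of muscle in the respiratory transcripts, and in these ratios, was not tested.

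The mitochondrial genome encodes mt:srRNA for the small and mt:lrRNA for the large subunit, which are shown here as the partners of the proteins and not by the rule for named genes. mt:srRNA measured 1988, 2473 and 1681 normalised counts in young and 509, 423 and 401 in old wild type. In mutants it measured 2193, 1894 and 3481 in young and 474, 533 and 579 in old flies. Old libraries were far below young ones in both genotypes.

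The log2 change of mt:srRNA with age was -2.19 ± 0.20 for wild type (limma, adjusted p = 4.9e-05) and -2.21 ± 0.20 for the mutants (adjusted p = 5.8e-05), and the interaction was -0.02 ± 0.29. Without the libraries with male transcripts it was -1.92 (adjusted p = 0.0304) and -2.28 (adjusted p = 0.0072). mt:lrRNA, the far more abundant of the pair in these libraries, measured 705505, 805761 and 721085 in young and 645733, 450152 and 511559 in old wild type, and 864972, 842207 and 1219820 in young and 628110, 621158 and 598713 in old mutants. Its groups did not overlap with age in either genotype. The log2 change was -0.49 ± 0.16 for wild type (adjusted p = 0.0799) and -0.64 ± 0.16 for the mutants (adjusted p = 0.0309). Without the libraries with male transcripts the change in mutants was -0.72 (adjusted p = 0.421), no smaller in size. Only RNA caught by poly(T) beads was sequenced, so these values do not measure the whole pool of ribosomal RNA. Over the 17 genes of the mitochondrial genome that were tested, 9 passed as lower with age in each genotype, with medians of -0.61 and -0.68.

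**Figure D5:**
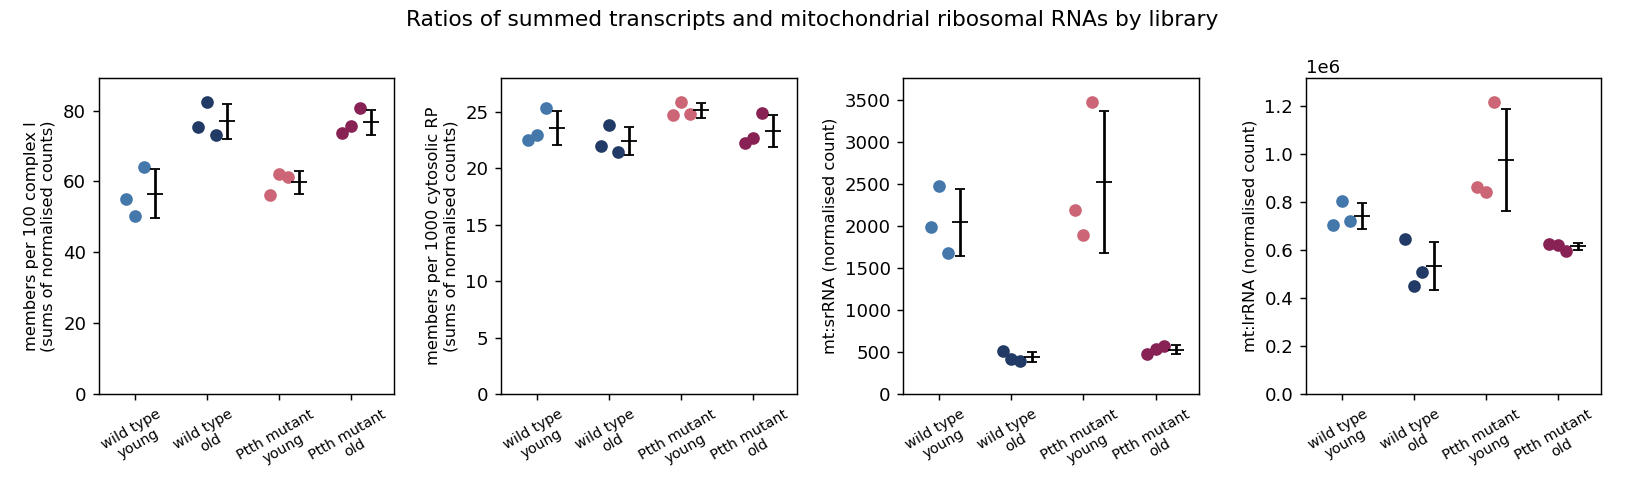
From left to right, mitochondrial ribosomal protein counts per 100 complex I counts, the same per 1000 cytosolic ribosomal protein counts, and normalised counts of mt:srRNA and mt:lrRNA, in each library. Coloured points are libraries and black bars the group mean with SD (n = 3). The first ratio is at least 73.0 in every old library and at most 64.0 in every young one, and mt:srRNA is at most 579 in old and at least 1681 in young libraries.

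The interaction, which asks whether the change with age differed between genotypes, gave no gene among the 72, beside 0.14% of all genes tested that passed as higher and 0.0175% as lower (16 and 2 genes, and 99 and 24 in DESeq2 and 6 and 0 in edgeR). None of the 72 genes had an unadjusted p under 0.05 in limma, edgeR or DESeq2. The median was -0.08, with 17 of 72 genes above 0, and the smallest p values were those of mRpL43 (-0.20 ± 0.10), mRpL42 (-0.25 ± 0.13) and mRpL27 (-0.22 ± 0.12), each with an adjusted p of 0.779. Without the libraries with male transcripts the median was -0.03. The intervals were wider here, and 71 of 72 lay within 1.5-fold.

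Other genes of mitochondrial translation followed. Of the 13 symbols listed for translation factors, 8 were in the table, and none passed in any of the 5 comparisons in limma (at most 1 with an unadjusted p under 0.05 in any of them, none in edgeR, and 1 passing in DESeq2 in young flies), with medians of 0.11 and 0.01 between genotypes in young and old flies and of 0.06 and -0.05 with age in wild type and mutants. Of 15 mitochondrial tRNA synthetases 1 passed, ValRS-m, which charges the valine tRNA. It measured 452, 463 and 506 in wild type and 551, 619 and 610 in mutants at the young age, without overlap, and the log2 change was 0.32 ± 0.09 (limma, adjusted p = 0.0449). Without the libraries with male transcripts the change was 0.28 (adjusted p = 0.486). The synthetases had medians of 0.08 and 0.03 between genotypes and of 0.08 and -0.01 with age.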

How the data were processed

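Poly(A) RNA of whole female flies was sequenced in 12 libraries. Per the submitters' processing notes the authors used STAR 2.7.3a, HTSeq 0.11.2 and DESeq2 1.20.0 with BDGP6. Whether strand was used in counting could not be read from the labels or methods, although the kit was directional. What the authors deposited is a normalised signal: reads per gene over a size factor for each library, by symbol. All values (100%) were multiples of a library-wide step of 0.798 to 1.32 within 0.01, so whole reads recovered from them could be tested. All sample columns were mapped (0 left out).

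Genes with a value of at least 10 in at least 3 libraries (11403) were fitted in limma 3.58.1 (R 4.3.3) as log2(value + 1) in 1 model of 4 groups with a trend, two-sided, with Benjamini-Hochberg adjustment over all genes tested. A log2 change understates the change of low genes. Recovered reads were tested with edgeR 4.0.16 (quasi-likelihood) and DESeq2 1.42.0. The procedure was tested on simulated data.

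Members, lists and alternatives were chosen with earlier results of these data known. Named are the 5 highest and 5 lowest members by mean, per comparison up to 6 passed members each way or, with fewer than 2 passed, the 3 of smallest p, then the mRpS18 genes, mRpL12, mRpS29, mRpL44, tko, bonsai, and passed genes of the factor, synthetase and transcription lists. RpS6K-like symbols were left out of the cytosolic list. The design text speaks of biological replicates without naming separate cultures, and p-values cover only the spread among the libraries at hand. Exon lengths and positions were read from an annotation of BDGP6. The paper names the wild type, the mutant and the ages otherwise than the labels, and the labels were followed.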

Additional observations from a re-analysis of the deposited data

How the results depend on the processing

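The count of members that passed between genotypes at the young age (2 as reported) was 1 without a filter on low values, with quantile normalisation and with edgeR, 0 with TMM scaling, with only the groups compared and without the libraries with male transcripts, 15 with DESeq2 and 41 with library weights, and 0 to 25 when single libraries were left out. The 25 came without wild type young replicate 3, which left young wild type libraries with male transcripts only. The weights were estimated without reaching their convergence tolerance. At the old age (0 as reported) it was 2 with DESeq2, 1 with only the groups compared and 4 with library weights, and 0 with any single library left out. With age in wild type it was 19 with library weights and 0 to 3 with single libraries left out (3 without wild type young replicate 3, the library of its group without male transcripts). With age in mutants it was 0 to 1 (1, mRpL27, without Ptth mutant young replicate 2). For the interaction it was 8 with library weights and 0 with any single library left out. The share of all genes that passed is not given for library weights or for single libraries left out. Those counts are therefore not read as results on the members.

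The median log2 change of the members between genotypes at the young age was 0.15 and fell to 0.072 without the libraries with male transcripts. With single libraries left out it was 0.09 to 0.19, at the old age 0.04 to 0.10, with age -0.02 to 0.07 in wild type and -0.08 to 0.00 in mutants, and for the interaction -0.12 to -0.03. Same-numbered libraries did not deviate together throughout (4 of 18 pairs correlated over 0.1, and 7 of 36 best matches had the same number), so the numbers were not used to pair them. Deviations of young wild type and young mutant libraries correlated at 0.82 for replicate 1, -0.87 for replicate 2 and 0.88 for replicate 3. Male transcripts were held by both libraries numbered 1, by only the wild type one numbered 2, and by neither numbered 3. The part of male transcripts in these correlations was not tested. With the replicate number as a block, 0 members passed in young flies in place of 2, and the other counts stayed at 0.

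Of 687 values for named members under the alternatives, 12 changed sign, all of members near 0 at the young age. mRpL45 (0.0083 as reported) was -0.033 with quantile normalisation, -0.034 with TMM scaling, -0.034 with edgeR and -0.10 with library weights, and -0.031 to 0.058 with single libraries left out. mRpS18C was -0.012 with TMM scaling and -0.014 with edgeR. mRpS24 was -0.015 to 0.13 with single libraries left out, and mRpS29 -0.063 without the libraries with male transcripts and -0.022 to 0.12 with single libraries left out. The fewest reads of any of the 72 members in a library were 124, and the part of counting error in the changes was not tested. Over all genes tested, DESeq2 passed 2483 between genotypes in young flies (1007 as reported), 1133 in old flies (651), 2096 with age in wild type (961), 1091 in mutants (664) and 123 for the interaction (18, and 6 with edgeR).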

Other observations

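Genes that act upstream of mitochondrial translation were measured in the same libraries. Of 11 listed genes of mitochondrial transcription and DNA maintenance 8 were in the table, mtTFB1 was listed at 0 in every library, and none of the 7 tested passed in any comparison (limma, with no unadjusted p under 0.05 in young or old genotype comparisons or with age in mutants, and 1 with age in wild type). Their median log2 change was 0.16 between genotypes in young flies and 0.03 in old flies.

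Of the 3 listed regulators, srl encodes the fly counterpart of the PGC-1 coactivators, and ewg and Ets97D encode counterparts of the nuclear respiratory factors. srl measured 6643 ± 1326 in young wild type, 8500 ± 698 in young mutants, and at the old age 7122 ± 880 in wild type and 8120 ± 657 in mutants (SD, n = 3). The genotype change in young flies was 0.37 ± 0.13 on the log2 scale and did not pass (limma, adjusted p = 0.0902), and it was 0.14 without the libraries with male transcripts. ewg and Ets97D did not pass in any comparison (limma).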
